A study of Mus musculus with 3 samples.

Results

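Cardiac endothelial cells of mice on a high fat diet (HFD) were set against those of mice on a control diet (CD). The cells were picked from the droplet barcodes of both libraries by what they contained. A filtered barcode had at least 1000 unique molecular identifiers (UMIs, each marking 1 captured transcript), at least 200 genes and at most 10% of its UMIs from mitochondrially encoded genes. A member was a filtered barcode in which at least 3 of 8 endothelial genes (Pecam1, Cdh5, Kdr, Cldn5, Egfl7, Cav1, Gpihbp1 and Emcn) were detected. In addition C1qa, C1qb and C1qc together took under 0.3% of its UMIs, and Col1a1, Col3a1, Dcn and Rgs5 gave at most 1 UMI in all. The rule found 462 members among 2717 filtered HFD barcodes and 198 among 2679 filtered CD barcodes, which is 660 of 5396. The 3 libraries of the series held 10171 filtered barcodes.

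Hearts came from wild type animals, 32 to 34 weeks of age, fed HFD, a Western diet (WD) or CD, and each diet gave 1 droplet-based single-cell RNA library. Hearts were flushed and digested with collagenase, and cells positive for CD45, F4/80 and CD11b were sorted as macrophages. The number of mice behind a library, the composition of the diets and the time on them were not stated in the sources used here. With 1 library per diet no difference between diets had a replicate, so every interval is a 95% interval for counting error only and no p-value was computed.

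Endothelial cells line the vessels, and in heart muscle most of them belong to capillaries that pass fatty acids from the blood to the cardiomyocytes. Gpihbp1 anchors lipoprotein lipase on the capillary wall, Cd36 takes fatty acids up, Fabp4 binds them in the cytosol, and the transcription factors Meox2 and Tcf15 maintain this transport programme. Endothelial cells carry none of the leukocyte surface proteins used for the sort, so these members lay outside the labelled gate.

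The members' level is given as CPM, the UMIs of a gene summed over the members of a library per 1000000 of all their UMIs, so that a level counts molecules whatever the length of the transcript. The HFD members held 969091 UMIs and the CD members 620345 UMIs. The median HFD member had 1756.5 UMIs over 1006 genes, and the median CD member 2622.5 UMIs over 1308 genes. Mitochondrially encoded genes took a median of 4.58% of a member's UMIs in HFD and 4.52% in CD. The barcodes of 15 filtered cells, 1 of them a member in both libraries, occurred in both libraries. By exact binomial interval, members made up 15.6% to 18.5% of filtered HFD barcodes and 6.43% to 8.45% of filtered CD barcodes. Since these cells passed a sort meant for macrophages, a share of this kind and the stringency of each sort cannot be told apart.

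The endothelial label held for the genes that the rule did not use. Of 20 further endothelial markers, 19 reached 50 UMIs over both libraries, and as a list they stood at 8930.0 CPM (8743 to 9120.2) in HFD members and 8041 CPM (7819 to 8267) in CD members. In macrophage cells of the same libraries, which are filtered barcodes with C1q genes at 0.3% of UMIs or more at most 1 of the 8 endothelial genes and at most 1 UMI of the stromal genes, the list stood at 162 CPM (HFD) and 128 CPM (CD). Among the genes that chose the members, given as a description, the adhesion molecule Pecam1 was at 787 CPM in HFD and 667 CPM in CD members, and the junction cadherin Cdh5 at 757 CPM (HFD) and 721 CPM (CD). Gpihbp1 was at 2213 CPM in HFD members, against 2123 CPM in CD members. Fabp4, which the rule did not use, was at 20460.4 CPM (20177 to 20747) in HFD members and 23455 CPM (23075 to 23839) in CD members. The antigens of the sort were almost absent: Ptprc, which encodes CD45, gave 4 UMIs in HFD members and 7 in CD members, Adgre1, which encodes F4/80, gave 12 (HFD) and 4 (CD), and Itgam, which encodes CD11b, gave 4 (HFD) and 4 (CD).

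**Figure D1:**
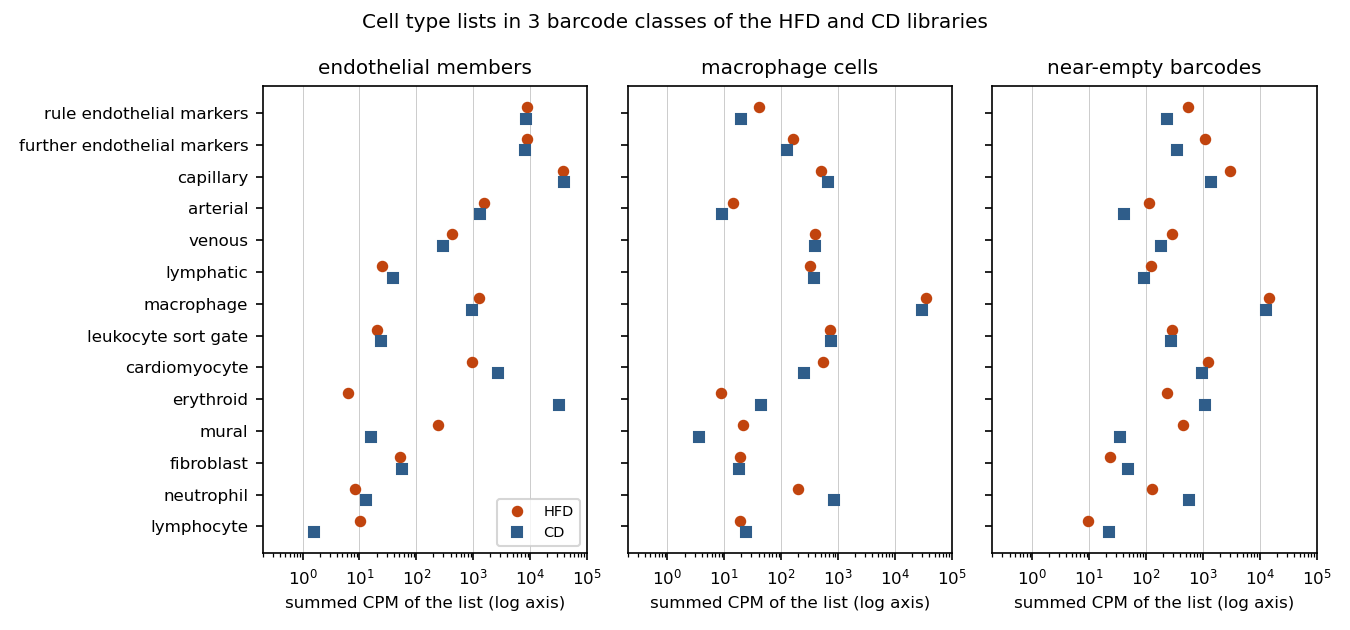
Summed CPM of 14 cell type lists (log axis) in the endothelial members, the macrophage cells and the near-empty barcodes of the HFD library (circles) and the CD library (squares). The capillary list leads in the members and the macrophage list in the macrophage cells. Erythroid genes in CD members and mural genes in HFD members stand far above the same list in the other diet.

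Other cell types left traces that differed between the libraries. Haemoglobin genes and Alas2 summed to 6.19 CPM in HFD members and 32648 CPM in CD members. The list took 70.4% to 87.6% of the UMIs in 3 CD members, and the 3 richest CD members held 99.9% of the UMIs of Hbb-bs, a beta globin gene. These 3 red cell-rich barcodes made up 4.13% of the UMIs of the CD members. The 12 cardiomyocyte genes summed to 951 CPM in HFD members and 2721 CPM in CD members, and all 10 of them with enough UMIs were lower in HFD. In near-empty barcodes of 5 to 50 UMIs, which sample free RNA, the same genes stood at 1238 CPM (HFD) and 953 CPM (CD). Mitochondrially encoded genes took 467883 CPM (HFD) and 524031 CPM (CD) of near-empty barcodes, against 47031 CPM (HFD) and 45720 CPM (CD) of members. This lowers the CPM of all other genes in near-empty barcodes, so their levels are not on the scale of the members. The mural list stood at 239 CPM in HFD members and 16.1 CPM in CD members, with 440.2 CPM in HFD and 35.2 CPM in CD near-empty barcodes. The macrophage list gave 1238 CPM in HFD members and 967 CPM in CD members, against 34568 CPM (HFD) and 29419 CPM (CD) in the macrophage cells. An erythroid, macrophage, cardiomyocyte or mural list took over 1% of the UMIs in 8 HFD members and 20 CD members. Fibroblast genes stood at 52.6 CPM in HFD members and 56.4 CPM in CD members, neutrophil genes at 8.26 CPM (HFD) and 12.9 CPM (CD), and lymphocyte genes at 10.3 CPM (HFD) and 1.61 CPM (CD). Schwann and mesothelial genes summed to 124 CPM (HFD) and 121 CPM (CD), and adipocyte genes gave 0 UMIs in both.

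Few barcodes lay close to the edges of the rule, while single limits left out more barcodes that met all others. These were 45 HFD and 3 CD barcodes with 2 or more stromal UMIs, and 41 HFD and 22 CD barcodes with C1q at 0.3% or more. Over 10% mitochondrially encoded UMIs left out 58 HFD and 29 CD barcodes. Exactly 3 of the 8 endothelial genes were detected in 20 HFD and 3 CD members, while 6 HFD and 4 CD barcodes with exactly 2 were left out. Within 100 UMIs above the minimum lay 44 HFD and 14 CD members, and 27 HFD and 6 CD barcodes lay up to 100 UMIs below it. C1q genes at 0.2% to 0.3% of UMIs were found in 8 HFD and 3 CD members, and 2 HFD and 0 CD barcodes at 0.3% to 0.4% were left out. With 9% to 10% mitochondrially encoded UMIs there were 17 HFD and 8 CD members, and 13 HFD and 6 CD barcodes at 10% to 11% were left out. A single UMI of a stromal gene occurred in 19 HFD and 12 CD members, and 5 HFD and 2 CD barcodes with 2 such UMIs were left out. All 8 endothelial genes were detected in 72 HFD and 53 CD members.

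Capillary genes took far more of the members' UMIs than other vessel lists did. The 14 capillary genes summed to 37961 CPM in HFD members and 39029.9 CPM in CD members, the 12 arterial genes to 1541 CPM (HFD) and 1329.9 CPM (CD), the 8 venous genes to 424 CPM (HFD) and 293 CPM (CD), and the 5 endocardial genes to 200.2 CPM (HFD) and 30.6 CPM (CD). Of the 194 endocardial UMIs in HFD, 151 were of Cytl1, the only gene of its list that was counted, and 137 of these lay in 15 cells of 1 cluster. Lymphatic genes were scarce. Prox1, the transcription factor that defines it, gave 2 UMIs in HFD members and 0 in CD members, and Pdpn, Mmrn1 and Reln gave 0 in both. The exact interval of a gene at 0 UMIs reaches 3.81 CPM in HFD and 5.95 CPM in CD members. The venous receptor Ackr1 was also at 0, and Selp, which encodes P-selectin, gave 2 UMIs in HFD members and 2 in CD members.

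Clustered library by library, the members fell into 10 HFD and 6 CD clusters. Cluster 2 of HFD (62 cells) and cluster 4 of CD (27 cells) were arterial-like. Their leading genes included Gja5, Fbln5 and Sema3g in HFD and Fbln5, Gja4 and Gja5 in CD, where Gja4 and Gja5 encode gap junction connexins and Fbln5 an elastic fibre protein. Cluster 5 of CD (24 cells) was venous-like, led by Vcam1, an adhesion molecule for leukocytes, and by Prss23 and Bgn. Cluster 3 of HFD (59 cells) also had Prss23, Bgn, Vwf and Vcam1 among its leading genes but only 2 venous markers past 2-fold, so it was left unnamed. Further unnamed clusters were led by interferon-induced genes (12 HFD cells, with Ifit3, Ifit1 and Isg15), by macrophage genes (11 HFD cells, with Ctss and Cd52, and 53 CD cells, with Fcer1g and Lyz2), by cardiomyocyte genes (76 HFD and 33 CD cells), and by Fos and Egr1 (28 CD cells). The numbers of cells in clusters were not compared between diets, since the clusters were made apart and their leading genes were chosen from the same cells.

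Across all genes, 4473 reached 50 UMIs over the members of both libraries and were counted. Of these, 392 were higher in HFD by 1.5-fold or more (8.76%), 223 were lower by as much (4.99%), and 13.7% passed in either direction. The median log2 ratio of HFD over CD was 0.07. In macrophage cells, where 9747 genes were counted, 4.11% were higher, 6.74% were lower and 10.9% passed either way, with a median of -0.04. These shares are the background for each list that follows. With the 28 members rich in another cell's genes left out, 316 genes were higher and 253 lower.

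**Figure D2:**
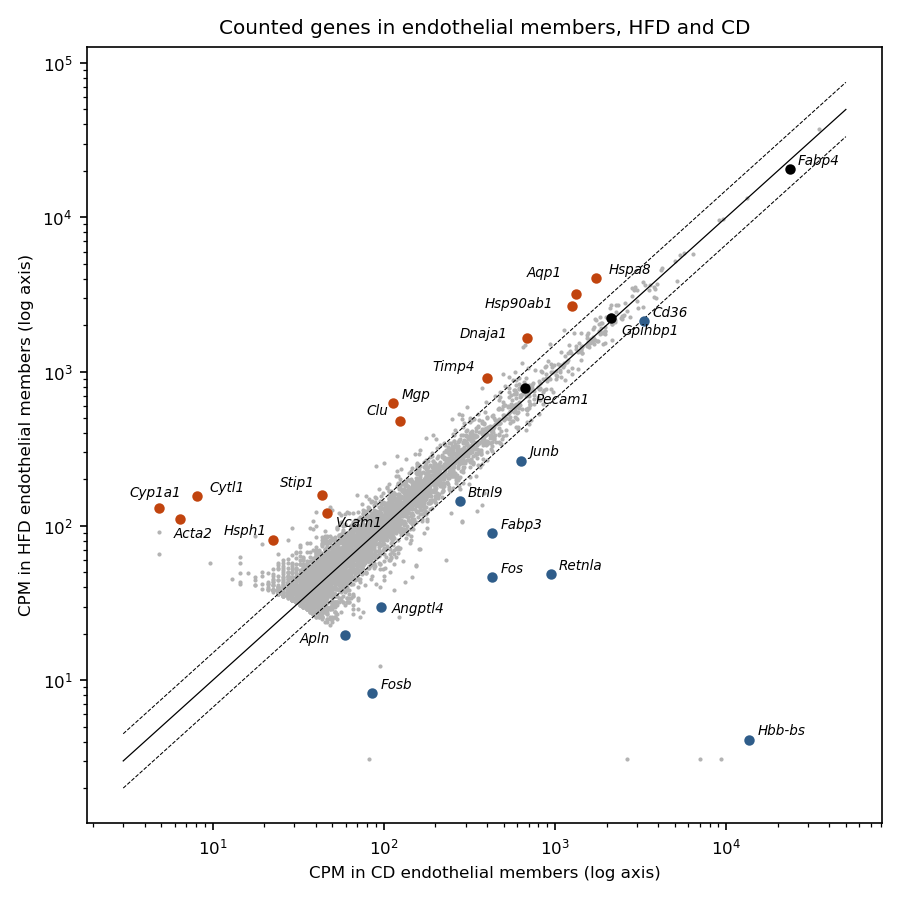
Each point is 1 of 4473 counted genes, with its CPM in HFD members on the vertical axis and in CD members on the horizontal axis (both log axes), and a gene under 3 counts is drawn at the level that 3 counts would give. The solid line marks equal levels, the dashed lines mark 1.5-fold, and labelled genes are coloured red where higher in HFD, blue where lower and black where within 1.5-fold. Hspa8, in red, lies at 4057 CPM in HFD against 1729.7 CPM in CD.

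Outside the genes of other cell types, the list with the largest share of genes past 1.5-fold among lists of at least 6 counted genes was that of the heat shock genes, which encode chaperones that fold and refold proteins. Of 11 genes in the list, 10 were counted, and 8 of these were higher in HFD members while 0 were lower, against 8.76% of all counted genes higher. The list's median log2 ratio was 1.12, and its sum was 11638 CPM (11424 to 11855) in HFD members and 5257 CPM (5078 to 5440.3) in CD members, a ratio of 2.21 (2.13 to 2.30). In macrophage cells the sum was 4822 CPM in HFD and 4518 CPM in CD, with 1 gene higher and 3 lower of 11. Near-empty barcodes stood at 2999 CPM (HFD) and 2268 CPM (CD), on a scale lowered by their mitochondrially encoded UMIs.

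The bases before the start of 4 heat shock genes are shown because members of this list were higher together, and because heat shock genes are known for repeats of GAA and its complement TTC, spaced by a pair of bases, which the heat shock factors bind. RefSeq gave windows of 250 bases before the start, in build GRCm38.p6, for 8 of the 11 genes, and Hspa8, Hsp90ab1 and Hsp90aa1 had no entry. The full element of 3 units (GAANNTTCNNGAA or TTCNNGAANNTTC, each the reverse complement of the other, so that both strands were searched) was found in Hspd1 and Hspe1. These 2 genes point away from each other and share the element in overlapping windows. The short element of 2 units (GAANNTTC or TTCNNGAA, each its own reverse complement and part of the full element) was found in 7 of the 8 genes, with Dnajb1 the exception. The full element occurs in 0.466% and the short one in 12.8% of all 32851 windows of the same table. A match is a run of letters and says nothing of binding in these cells. The matched letters stand in capitals below, 5′ to 3′ on the gene's strand, for Hspd1 (chr1:55087933-55088182, minus strand, 1 of 2 listed starts), Hsph1 (chr5:149636316-149636565, minus strand, 1 of 2 listed starts), Hspb1 (chr5:135887669-135887918, plus strand) and Dnaja1 (chr4:40722218-40722467, plus strand, 1 of 3 listed starts, the other two without a match).
Hspd1: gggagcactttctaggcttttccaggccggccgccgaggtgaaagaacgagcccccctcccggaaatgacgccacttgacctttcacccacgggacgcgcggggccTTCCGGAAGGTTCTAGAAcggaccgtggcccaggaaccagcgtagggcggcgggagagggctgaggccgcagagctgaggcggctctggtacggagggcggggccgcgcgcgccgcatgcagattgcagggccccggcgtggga
Hsph1: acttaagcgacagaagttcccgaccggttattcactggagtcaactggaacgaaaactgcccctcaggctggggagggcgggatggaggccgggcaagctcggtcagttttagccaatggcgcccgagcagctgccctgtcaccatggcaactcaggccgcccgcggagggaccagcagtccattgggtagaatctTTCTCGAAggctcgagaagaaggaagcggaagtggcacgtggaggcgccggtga
Hspb1: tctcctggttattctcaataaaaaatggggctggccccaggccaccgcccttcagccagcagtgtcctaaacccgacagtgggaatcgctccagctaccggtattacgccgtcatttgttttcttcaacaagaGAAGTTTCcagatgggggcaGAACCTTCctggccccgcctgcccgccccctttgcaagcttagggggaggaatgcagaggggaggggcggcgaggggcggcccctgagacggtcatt
Dnaja1: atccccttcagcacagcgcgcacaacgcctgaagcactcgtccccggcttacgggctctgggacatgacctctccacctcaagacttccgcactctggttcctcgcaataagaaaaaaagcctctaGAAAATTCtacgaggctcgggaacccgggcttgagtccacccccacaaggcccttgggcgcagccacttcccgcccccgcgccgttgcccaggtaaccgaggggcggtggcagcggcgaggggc

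Hspa8, the constitutive Hsp70 chaperone, stood at 4057 CPM (3932 to 4186) in HFD members and 1729.7 CPM (1628 to 1836) in CD members, 2.35-fold higher (2.19 to 2.51). Its partner Dnaja1, an Hsp40 cochaperone, stood at 1645 CPM (1565 to 1728) in HFD members and 683 CPM (620.0 to 752) in CD members, 2.41-fold higher (2.16 to 2.68). For both genes the intervals cover counting error only, not a spread between animals. Hsp90ab1, the constitutive cytosolic Hsp90, stood at 2665 CPM (2564 to 2770.2) in HFD members and 1264 CPM (1177 to 1355) in CD members, 2.11-fold higher (1.95 to 2.29). The inducible form Hsp90aa1 stood at 779 CPM in HFD members and 374 CPM in CD members, 2.08-fold higher (1.80 to 2.42). Both Hsp90 genes thus differed by about the same factor. Hspb1, a small heat shock protein of endothelium and muscle with 2 short elements before its start, stood at 1454 CPM (1379 to 1532) in HFD members and 651 CPM (589 to 718) in CD members, 2.23-fold higher. It was scarce in macrophage cells, at 27.1 CPM in HFD and 20.6 CPM in CD.

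The less abundant chaperones followed with wider intervals. Hspd1, the mitochondrial chaperonin Hsp60 whose window holds the full element, stood at 256 CPM (225 to 289.8) in HFD members and 99.9 CPM (76.6 to 128) in CD members, 2.56-fold higher (1.93 to 3.44). Its neighbour Hspe1, the cochaperonin Hsp10 that shares this element, stood at 279 CPM (246 to 314) in HFD members and 187 CPM (155 to 224) in CD members, a ratio of 1.49 (1.19 to 1.87) that did not reach 1.5. Hsph1, an Hsp110 exchange factor for Hsp70, gave 79 UMIs in HFD members and 14 in CD members, 3.61-fold higher (2.03 to 6.91). Hspa1a, the inducible Hsp70, stood at 309.6 CPM (276 to 347) in HFD members and 163 CPM (133 to 198) in CD members, 1.90-fold higher (1.51 to 2.41). In macrophage cells it ran the other way, at 156 CPM in HFD and 617 CPM in CD, 3.96-fold lower in HFD. Its copy Hspa1b, whose near-identical transcript can take some of its reads, gave 11 UMIs in HFD and 8 in CD members and was not counted. Dnajb1, an Hsp40 with no match in its windows, stood at 100.1 CPM in HFD members and 69.3 CPM in CD members, a ratio of 1.44 (0.999 to 2.12). Stip1, which bridges Hsp70 and Hsp90 and was no part of the list, was among the 12 genes whose interval lay farthest above CD, at 158 CPM (134 to 185) in HFD members and 43.5 CPM (28.7 to 63.3) in CD members, 3.63-fold higher (2.40 to 5.68).

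The heat shock difference was spread over cells and clusters. The list took a median of 1.06% of a member's UMIs in HFD (10th to 90th percentile 0.636% to 1.91%) and 0.501% in CD (0.282% to 0.820%). It took over 1% in 256 of 462 HFD members and in 8 of 198 CD members. In macrophage cells the median was 0.433% in HFD and 0.393% in CD. Every HFD cluster, from 7810 to 13658 CPM, stood above every CD cluster, from 4266 to 6682 CPM, and the arterial-like clusters were at 11802 CPM in HFD against 4266 CPM in CD. With each cell thinned at random to 1000 UMIs, Dnaja1 was detected in 78.8% of HFD members and 47.5% of CD members (92.0% and 76.8% without thinning), and in 30.5% and 24.3% of macrophage cells, whose medians were 2910 UMIs in HFD and 4276 UMIs in CD. Thinned likewise, Hspd1 was detected in 23.2% of HFD members and 9.09% of CD members (38.5% and 24.7% without thinning), against 10.1% and 8.36% of macrophage cells.

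**Figure D3:**
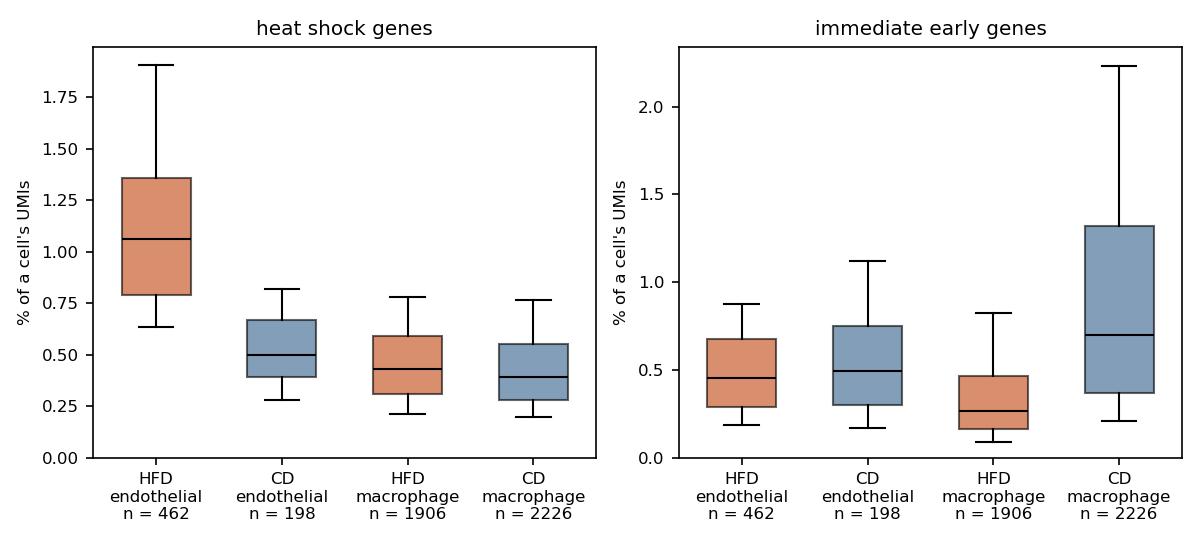
Percent of a cell's UMIs taken by 11 heat shock genes (left) and 16 immediate early genes (right) in endothelial members and macrophage cells of HFD and CD. Boxes run from the 25th to the 75th percentile with the median as a line and whiskers from the 10th to the 90th, and the HFD endothelial heat shock median of 1.06% lies above the CD 90th percentile of 0.820%.

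Immediate early genes, which are switched on within minutes of a stimulus or of tissue dissociation, went the other way. Of 16 genes, 14 were counted, 6 of them lower in HFD members and 0 higher, against 4.99% of all counted genes lower, and the median log2 ratio was -0.49. In macrophage cells 15 of 16 were lower, with a median of -1.56. Near-empty barcodes held the list at 1737 CPM in HFD and 3881 CPM in CD. How much of the members' difference comes with free RNA or with the dissociation was not tested.

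Fos, a subunit of the AP-1 transcription factor, stood at 46.4 CPM (33.9 to 62.1) in HFD members and 429 CPM (379 to 484) in CD members, 9.23-fold lower (6.71 to 13.0). Fosb, a close relative, gave 8 UMIs in HFD members and 53 in CD members, 10.3-fold lower (4.89 to 25.2). Of the Fos UMIs, 24.4% in HFD and 25.9% in CD lay in the 3 richest members, and the CD cluster led by Fos held 57.1% of those of CD. Junb, the AP-1 partner, stood at 265 CPM in HFD members and 634 CPM in CD members, 2.39-fold lower (2.04 to 2.81), and Egr1, a zinc finger factor, at 71.2 CPM (HFD) and 163 CPM (CD), 2.29-fold lower (1.67 to 3.15). Jun stood just past the limit, at 533 CPM in HFD members and 804 CPM in CD members, 1.51-fold lower (1.33 to 1.71), and Ier3, an apoptosis regulator, was 1.77-fold lower (1.23 to 2.55), but only -0.18 on the log2 scale in place of -0.82 after thinning. The other 8 counted genes lay within 1.5-fold, 3 of them lower and 5 at the same level or higher. Btg2, an antiproliferative gene, stood at 344 CPM in HFD members and 479 CPM in CD members, 1.39-fold lower (1.19 to 1.63), and Zfp36, which destabilises messenger RNAs, was 1.42-fold lower (1.01 to 1.99). Jund stood at 1157 CPM in HFD members and 1156 CPM in CD members, and Dusp1, a phosphatase that ends kinase signals, at 1122 CPM (HFD) and 945 CPM (CD). In macrophage cells Dusp1 stood at 418 CPM (HFD) and 1143 CPM (CD).

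Among capillary genes 2 of 14 were higher in HFD members and 2 were lower, against 8.76% and 4.99% of all counted genes. The list's median was 0.14. Aqp1, the water channel of capillary endothelium, stood at 3180.3 CPM (3069 to 3295) in HFD members and 1332 CPM (1242 to 1426) in CD members, 2.39-fold higher (2.21 to 2.58). It was detected in 69.0% of HFD and 51.5% of CD members after thinning (73.8% and 62.6% before), against 1.63% and 0.854% of macrophage cells. Timp4, a metalloproteinase inhibitor of heart capillaries, stood at 913 CPM (854 to 975) in HFD members and 399.8 CPM (352 to 453) in CD members, 2.28-fold higher (1.98 to 2.64). The lower genes were Cd36, at 2139 CPM (2048 to 2233) in HFD members and 3293 CPM (3152 to 3439) in CD members, 1.54-fold lower (1.45 to 1.64), and Btnl9, a butyrophilin-like membrane protein, at 144 CPM (HFD) and 277 CPM (CD), 1.92-fold lower (1.53 to 2.42). These 4 genes are named for passing 1.5-fold, and their intervals cover counting error only, not a spread between animals. Under other settings the log2 ratio of Cd36 lay between -0.79 and -0.57, the latter just short of 1.5-fold. Ly6c1 stood at 3396 CPM in HFD members and 2999.9 CPM in CD members, and the carbonic anhydrase Car4 at 354 CPM (HFD) and 392 CPM (CD).

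**Figure D4:**
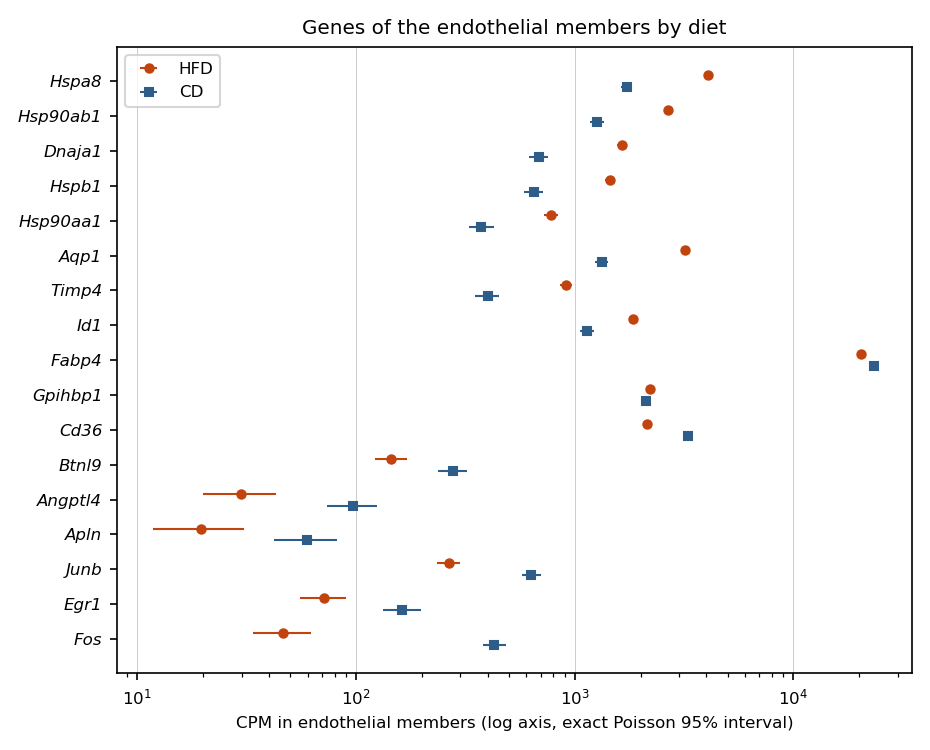
CPM of 17 genes in endothelial members of HFD (circles) and CD (squares) on a log axis, with exact Poisson 95% intervals for counting error. Chaperones, Aqp1, Timp4 and Id1 lie higher in HFD, Cd36, Btnl9, Angptl4, Apln, Junb, Egr1 and Fos lie lower, and Gpihbp1 and Fabp4 lie within 1.5-fold.

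Of the fatty acid uptake and carriage genes, 9 of 17 were counted. Of these, 2 were lower in HFD and 0 were higher, against 4.99% and 8.76% of all counted genes. Besides Cd36, the lower gene was Angptl4, a secreted inhibitor of lipoprotein lipase, at 29.9 CPM (29 UMIs) in HFD members and 96.7 CPM (60 UMIs) in CD members, 3.23-fold lower (2.04 to 5.22). The 3 richest members held 24.1% of them in HFD and 21.7% in CD. Fabp4 differed by a ratio of 0.872 (0.854 to 0.891), Fabp5 stood at 952 CPM in HFD members and 1012 CPM in CD members, and the lipase gene Lpl at 764 CPM (HFD) and 574 CPM (CD). Tcf15 stood at 999.9 CPM in HFD members and 839.9 CPM in CD members, and Meox2 at 292 CPM (HFD) and 253 CPM (CD), both within 1.5-fold. Fatty acid oxidation had 1 of 11 counted genes lower, the medium-chain dehydrogenase Acadm at 66.0 CPM in HFD members and 114 CPM in CD members, with a list median of -0.23. None of 20 respiratory chain genes passed in either direction (median -0.12), and none of 12 mitochondrially encoded or 76 cytosolic ribosomal protein genes did. Of 11 glycolysis and glucose transport genes 1 was higher, the hexokinase Hk1 at 70.2 CPM in HFD members and 38.7 CPM in CD members.

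In the signalling lists single genes passed 1.5-fold, where 8.76% of all counted genes were higher and 4.99% lower. In the VEGF, angiopoietin and apelin list, 1 of 9 counted genes was lower and 0 were higher. The lower gene was Apln, the apelin ligand of sprouting endothelium, at 19.6 CPM (11.8 to 30.6) in HFD members and 59.6 CPM (42.0 to 82.2) in CD members, 3.04-fold lower (1.71 to 5.60), whereas its receptor Aplnr stood at 365 CPM (HFD) and 316 CPM (CD). The VEGF receptors were close, with Kdr at 552 CPM in HFD and 584 CPM in CD members and Flt1 at 691 CPM (HFD) and 672 CPM (CD). In the TGF-beta and BMP list 2 of 13 counted genes were higher and 0 lower. Id1, a BMP target that blocks basic helix-loop-helix factors, stood at 1849 CPM (1765 to 1937) in HFD members and 1135 CPM (1053 to 1222) in CD members, 1.63-fold higher (1.49 to 1.78). Tmem100, a membrane protein downstream of the BMP receptor Acvrl1, gave 61 UMIs in HFD and 9 in CD members, 4.34-fold higher (2.14 to 9.94). Id3 stood at 1940.0 CPM in HFD members and 1688 CPM in CD members, within 1.5-fold.

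The Notch list had 1 of 10 counted genes higher, the ligand Dll1 at 65.0 CPM in HFD members and 29.0 CPM in CD members, 2.24-fold higher (1.31 to 4.02), while the arterial ligand Dll4 stood at 129 CPM (HFD) and 124 CPM (CD). Of 12 counted flow response and vasoactive genes 1 was lower, the vasoconstrictor Edn1 with 29 UMIs in HFD and 31 UMIs in CD members, and its interval for the fold, 1.67-fold lower (0.974 to 2.87), included no difference. The shear-induced factor Klf2 stood at 3463 CPM in HFD members and 2827 CPM in CD members, and Klf4 at 906 CPM (HFD) and 616 CPM (CD), a ratio of 1.47 (1.30 to 1.66). Among 19 counted endothelial transcription factors Sox17 and Gata2 were higher and Hhex, a homeobox repressor, lower. Gata2 stood at 174 CPM in HFD members and 93.5 CPM in CD members, 1.87-fold higher (1.38 to 2.56). Sox17, an arterial factor, stood at 389 CPM (HFD) and 258 CPM (CD), 1.51-fold higher (1.25 to 1.83). The arterial ligand Efnb2 and the netrin receptor Unc5b were the 2 arterial genes lower in HFD, at 45.4 and 35.1 CPM in HFD members and 83.8 and 66.1 CPM in CD members. Of 5 counted venous genes 3 were higher in HFD and 0 lower, against 8.76% and 4.99% of all counted genes. Under other settings 1 to 3 venous genes were higher.

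In genes of exchange and barrier, 4 of 9 counted caveolae and transcytosis genes were higher in HFD and 0 lower. Over all counted genes these shares were 8.76% and 4.99%. The 4 genes were Aqp1, the caveolar coat protein Cavin3, the membrane remodeller Ehd4 and Plvap. Cavin3 stood at 467 CPM in HFD members and 295 CPM in CD members, 1.58-fold higher (1.33 to 1.89). Ehd4 stood at 187 CPM (HFD) and 121 CPM (CD), 1.54-fold higher (1.17 to 2.05). Plvap, which forms the diaphragms of caveolae and fenestrae, rested on 40 UMIs in HFD and 14 in CD, with 60.0% (HFD) and 92.9% (CD) of them in 3 members. Across other settings 1 to 4 genes of the list were higher. Aqp1 passed 1.5-fold in each setting run, while log2 ratios went down to 0.52 for Cavin3, 0.19 for Ehd4 and 0.36 for Plvap, below the limit, after thinning. Of 11 counted junction genes 1 was higher, Cgnl1 at 56.8 CPM in HFD members and 33.9 CPM in CD members. Of 12 counted basement membrane and matrix genes 1 was lower, Hspg2, which encodes perlecan, at 191 CPM in HFD members and 290.2 CPM in CD members, 1.52-fold lower (1.23 to 1.88). The type IV collagen gene Col4a1 stood at 337 CPM (HFD) and 480.4 CPM (CD), 1.42-fold lower and short of the limit. None of 4 counted coagulation genes passed.

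Among 7 counted genes of leukocyte adhesion, chemokines and NF-kB, 2 were higher and 0 lower, against 8.76% and 4.99% of all counted genes. Icam1, which binds leukocyte integrins, stood at 122 CPM (101 to 146) in HFD members and 66.1 CPM (47.4 to 89.7) in CD members, 1.84-fold higher (1.28 to 2.70). It was 2.51-fold lower in HFD macrophage cells, at 29.8 CPM in HFD and 74.8 CPM in CD. Vcam1 stood at 122 CPM (101 to 146) in HFD members and 46.7 CPM (31.3 to 67.1) in CD members, 2.60-fold higher (1.72 to 4.06), with 28.0% of its HFD UMIs and 44.8% of its CD UMIs in 3 members. Both genes stood higher in an unnamed HFD cluster than in the other HFD members. In HFD cluster 3 Icam1 stood at 401 CPM against 72.8 CPM in the other members, and Vcam1 at 387 against 75.2 CPM. In the venous-like CD cluster 5 Vcam1 stood at 269 against 9.41 CPM. The log2 ratio of Icam1 went down to 0.47, below 1.5-fold, under another setting. Cxcl12, a chemokine of capillary endothelium, stood at 1165 CPM (HFD) and 906 CPM (CD). Of 10 counted angiocrine factors 2 were higher, Pdgfa and Tgfb1, and 3 were lower, Hbegf, Edn1 and Apln. Tgfb1 stood at 249 CPM in HFD members and 161 CPM in CD members, 1.54-fold higher (1.22 to 1.97), and the growth factor Pdgfa gave 52 UMIs in HFD and 15 UMIs in CD members.

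Of 24 interferon response genes 2 were higher in HFD members, the GTPases Igtp at 1.70-fold and Iigp1 at 1.52-fold, and 3 were lower, Ifit3 at 1.63-fold, Irf7 at 1.76-fold and Rsad2 at 1.61-fold. Over all counted genes 8.76% were higher and 4.99% lower. The interferon list's median was -0.07, and Ifit3 moved to -0.08 on the log2 scale, in place of -0.70, after thinning. None of 10 counted MHC class I genes passed, with a median of 0.22. Of 6 counted MHC class II genes 1 passed, H2-Aa at 386 CPM in HFD members and 193 CPM in CD members. In macrophage cells H2-Aa stood at 10654 CPM (HFD) and 6271 CPM (CD), all 7 genes of that list were higher in HFD there, and near-empty barcodes held H2-Aa at 4276 CPM (HFD) and 2674 CPM (CD). The median of the MHC class II list, 0.48, depended on the setting: it lay between -0.26 with near-empty RNA subtracted at the scale of the macrophage list and 1.06 with at least 4 endothelial genes, and 0 to 5 genes were higher. Of 6 counted proliferation genes 1 was higher, Mcm3, a subunit of the replicative helicase, at 51.6 CPM in HFD members and 33.9 CPM in CD members.

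**Figure D5:**
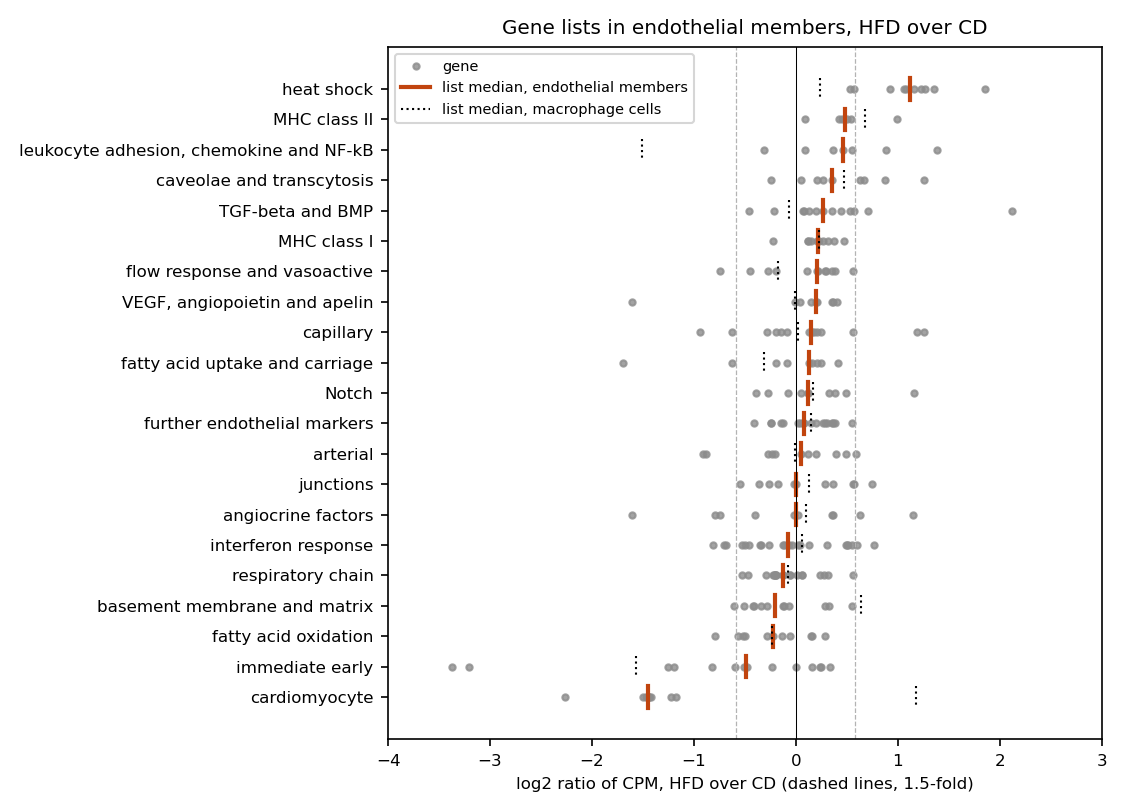
Log2 ratio of HFD over CD CPM for each counted gene (grey points) of 21 lists in endothelial members, with the list median in members (solid bar) and in macrophage cells (dotted bar), where dashed lines mark 1.5-fold. Heat shock genes, median 1.12, lie at the higher end, and immediate early genes, median -0.49, and cardiomyocyte genes, median -1.45, at the lower end.

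Among the genes farthest above CD was Cyp1a1, a cytochrome P450 known as a target of the aryl hydrocarbon receptor. It gave 127 UMIs in 45 of 462 HFD members, 131 CPM (109 to 156), and 0 UMIs in 198 CD members. By the exact interval of the ratio it was at least 21.7-fold higher in HFD, and against a floor of 3 counts in CD, which is 4.84 CPM, 27.1-fold. Macrophage cells held 0.322 CPM in HFD and 0 in CD, and near-empty barcodes 6.66 CPM in HFD and 0 in CD. After thinning it was detected in 6.49% of HFD members and 0% of CD members (9.74% and 0% before), against 0% and 0% of macrophage cells. The 3 richest members held 27.6% of its UMIs.

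Other genes far above CD rested on few cells or mainly on the arterial-like cluster. Cytl1, a secreted cytokine-like protein, stood at 156 CPM in HFD members and 8.06 CPM in CD members, 19.3-fold higher (8.10 to 60.4) and between 3.11 and 5.31 on the log2 scale under other settings, with 90.7% of its HFD UMIs in the arterial-like cluster. Mgp, an inhibitor of vessel calcification, stood at 628 CPM (579 to 680.4) in HFD members and 113 CPM (88.0 to 143) in CD members, 5.57-fold higher (4.34 to 7.24), with 47.0% of its HFD and 72.9% of its CD UMIs in 3 members. The log2 ratio of Mgp was 0.96 with members thinned to 1000 UMIs, in place of 2.48. Clu, a secreted chaperone, stood at 479.8 CPM (437 to 525) in HFD members and 124 CPM (98.0 to 155) in CD members, 3.87-fold higher (3.03 to 4.99), and the arterial-like cluster of each library held 91.8% of its UMIs in HFD and 87.0% in CD. Nts, the neurotensin precursor, gave 84 UMIs in HFD members and 11 UMIs in CD members. The contractile genes Acta2, Tagln and Myl9 gave 107, 88 and 64 UMIs in HFD members and 4, 2 and 1 in CD members. In HFD 74.8%, 78.4% and 67.2% of these lay in 3 members, and the genes also stood higher in HFD near-empty barcodes, with Acta2 at 263 CPM in HFD and 18.9 CPM in CD. Without the members rich in another cell's genes their log2 ratios were 2.07, 2.67 and 3.73, in place of 4.10, 4.82 and 5.36. The part of smooth muscle RNA in these counts was not tested.

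The genes farthest below CD were, apart from Fos and Fosb, genes of other cells. Hbb-bs, for 1 of 4 haemoglobin genes, gave 4 UMIs in HFD members and 8419 in CD members, and its log2 ratio of -11.68 was -2.16 without the 3 red cell-rich CD barcodes. Retnla, a macrophage protein, gave 47 UMIs in HFD and 584 in CD members, with 96.9% of the CD UMIs in 3 members, and its log2 ratio was 0.53 without the members rich in another cell's genes, in place of -4.28. Fabp3, Cox6a2, Cox8b and Tcap, which are heart muscle genes, stood at 89.8, 59.8, 25.8 and 12.4 CPM in HFD members and 430.4, 232, 123 and 95.1 CPM in CD members. Fabp3 was detected in 4.98% of HFD and 31.8% of CD members after thinning (9.74% and 49.5% before), against 4.51% and 3.77% of macrophage cells. Its log2 ratio was -2.95 after thinning, in place of -2.26.

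The 15 genes outside the rule that stood farthest above the macrophage cells in both libraries were compared between diets. Of these, 5 were higher in HFD by 1.5-fold or more and 0 were lower, against 8.76% and 4.99% of all counted genes. Plpp3, a lipid phosphatase that degrades lysophosphatidic acid, stood at 803 CPM (747 to 861) in HFD members and 513 CPM (458 to 572) in CD members, 1.57-fold higher (1.37 to 1.79). Akap2, an anchor of protein kinase A, stood at 294 CPM in HFD members and 152 CPM in CD members, 1.94-fold higher (1.53 to 2.48). Cyp4b1, a cytochrome P450, stood at 435 CPM (HFD) and 290.2 CPM (CD), and Pdzd2 and Sox17 were the others. Only Akap2 passed 1.5-fold in each setting run, with a lowest log2 ratio of 0.90. Log2 ratios went down to 0.48 for Plpp3, 0.39 for Cyp4b1, 0.37 for Pdzd2 and 0.43 for Sox17, below the limit. Aqp7, the glycerol channel, stood at 386 CPM in HFD members and 517 CPM in CD members, against 0.322 CPM (HFD) and 0.459 CPM (CD) in macrophage cells. Mgll, which releases glycerol from monoglycerides, stood at 1340.4 CPM in HFD members and 1359 CPM in CD members. Both glycerol genes lay within 1.5-fold between diets. Outside the haemoglobin, mitochondrially encoded and ribosomal protein genes, the most abundant transcripts of the members were Malat1, Fabp4, Tmsb4x, Actb and B2m, and none of the 12 such genes among the 15 most abundant differed by 1.5-fold.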

How the data were processed

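The deposited count matrices hold UMI counts per gene and barcode, made by the authors with 10x software 3.0.1 (HFD, CD) and 7.2.0 (WD), per the file headers. The build is GRCm38 and Seurat is named, both without a version or a role, per the submitters' processing notes. The members, lists and thresholds were chosen with earlier results of these data known. Barcodes were filtered and picked by the rule that opens the report, from 737280 listed barcodes per library, and the counts of 31053 listed genes were summed over members (Python 3.11.15, NumPy 2.4.6). The summed library depths were 16630481 UMIs (HFD) and 17464149 UMIs (CD). Rows under a symbol shared with another row were kept apart by gene ID and entered no list, among them Aldoa and Ccl21a.

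A gene was counted with at least 50 UMIs over both libraries' members, and called higher or lower at 1.5-fold. Intervals (SciPy 1.17.1) are exact Poisson for CPM, conditional binomial for ratios and Clopper-Pearson for shares, at 95%. They cover counting error only. The simulated data on which they were tested drew independent counts, so UMIs of a gene crowded in few cells were not covered. Where a floor is named, a count of 0 was set at 3 counts. Detection shares were thinned to 1000 UMIs a cell (seed 7), which left out no member. Each library's members were clustered with scanpy 1.11.5 and leidenalg 0.10.2, and a cluster was named only with at least 3 markers of 1 vessel type past 2-fold and no other type with more markers among its top 10 genes. Doublets were not removed, and a score made with scikit-learn 1.9.0 left out 59 HFD and 57 CD cells, 11 and 0 of them members, as an alternative. TMM factors came from edgeR 4.0.16. Named genes are those of the lists with the largest ratio or level, the 15 most abundant outside mitochondrially encoded and ribosomal protein genes, the 15 highest over macrophage cells, and the 12 on each side whose interval lies farthest from 1. The genes that this rule picks are given by count where a result does not turn on them, and 1 is not reported here. A few other list members are named beside them for their role. Sequences are from RefSeq, build GRCm38.p6.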

Additional observations from a re-analysis of the deposited data

Results flagged for a closer look

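Among the genes of the lists and those named by rule, 11 lay past 1.5-fold one way in endothelial members and past 1.5-fold the other way in macrophage cells of the same libraries. With 1 library per diet, the difference was not tested. The share of all counted genes that lay past 1.5-fold in opposite directions was not computed, so the count of 11 has no background. Each difference is the members' log2 ratio minus that of the macrophage cells. The inducible chaperone Hspa1a was 1.90-fold higher in HFD members and 3.96-fold lower in HFD macrophage cells, a difference of 2.91. The adhesion gene Icam1 was 1.84-fold higher in HFD members and 2.51-fold lower in HFD macrophage cells, a difference of 2.21. Its log2 ratio in members went down to 0.47, below 1.5-fold, under another setting.

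The other 9 genes belong to heart muscle and were lower in HFD members but higher in HFD macrophage cells. The creatine kinase Ckm differed by -3.01, and the cytochrome oxidase subunit Cox6a2 by -2.80. The troponins differed by -2.89 for Tnnt2, -2.52 for Tnni3 and -2.35 for Tnnc1. The myosin light chains differed by -2.68 for Myl3 and -2.60 for Myl2, the cardiac actin Actc1 by -2.29 and the calcium pump inhibitor Pln by -2.18. Near-empty barcodes held the cardiomyocyte list at 1238 CPM in HFD and 953 CPM in CD, and the part of free RNA in these differences was not tested.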

How the results depend on the processing

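Each result was recomputed under 16 other settings, 13 planned and 3 chosen after seeing the data. The added ones left out members with over 1% of UMIs in another cell's list, left out those rich in erythroid genes, and subtracted near-empty RNA scaled to the macrophage list (8.66% of member UMIs in HFD, 7.5% in CD). Settings of at least 20 or 200 UMIs changed only which genes were counted, so all 330 ratios in each stayed the same by construction. TMM and CPM without mitochondrially encoded and ribosomal protein genes only rescaled all ratios alike, and 329 and 330 values stayed within their interval. Of 5272 values for 330 gene results, these included, 5037 moved by less than their counting interval, 231 moved further and 4 reversed. All 4 were the log2 ratio of Retnla, at 0.39 with C1q genes under 0.1%, 0.58 with at least 4 endothelial genes, 0.50 without members holding Ptprc, Csf1r or Tyrobp UMIs and 0.53 without members rich in another cell's genes. The heat shock median lay between 1.08 and 1.16, with 7 to 9 genes higher and 0 lower in every setting that was run. The immediate early median lay between -0.59 and -0.19, with 3 to 7 genes lower.

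The number of genes higher in HFD was 736 with thinning to 1000 UMIs, 906 at 20 UMIs or more (of 7294 counted) and 83 at 200 UMIs or more (of 1300 counted). The number lower was 466, 649 and 31 under these settings, and 146 with at most 5% mitochondrial UMIs. HFD members were 19.8% of filtered cells at 500 UMIs, 9.51% at a stricter UMI minimum, 14.9% with C1q under 0.1% and 13.7% without Ptprc, Csf1r or Tyrobp. CD members were 5.59% at the stricter UMI minimum, 5.74% with at most 5% mitochondrial UMIs and 6.05% without Ptprc, Csf1r or Tyrobp. The higher genes were 63.7% of those called, 55.5% without members rich in another cell's genes and 55% without erythroid-rich members. Called genes that moved by over 1.5-fold, beside those given in the report, included Cyp1a1 (3.19 on the log2 scale after thinning), Pdgfa (3.03), Acadm (-1.43) and Hhex (-1.32) under the same setting, and H2-Aa (1.72 with free RNA subtracted). Further calls fell short of 1.5-fold under another setting. Among genes called lower, log2 ratios reached -0.50 for Hspg2, -0.35 for Jun, -0.38 for Hhex, -0.57 for Efnb2 and -0.29 for Edn1. Among genes called higher, they reached 0.49 for Tgfb1, 0.32 for Igtp, 0.50 for Iigp1, 0.19 for Cgnl1, 0.46 for H2-Aa and 0.10 for Mcm3. Heart muscle genes, most of them flagged above, that moved by over 1.5-fold went further below CD. The exception was Tcap at the stricter UMI minimum, at -2.34 in place of -2.94. Smaller moves also went nearer to CD, up to -0.76 for Pln and -0.93 for Tnnt2. After thinning Tnnt2 reached -2.50, Actc1 -2.17 and Mb -2.19. Without members rich in another cell's genes Pln reached -2.08, Tnni3 -2.11 and Myl2 -1.83. The erythroid gene Alas2 moved from -4.73 to -1.96 after thinning. Tcap reached -3.63 in the mean over single cells.

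No paired analysis was possible because each diet has 1 library and the labels share no replicate numbers, and with 1 library a diet there was no replicate to leave out. Subtraction of near-empty RNA scaled to the cardiomyocyte list was not run, since its scale came to 286% of the CD members' UMIs. At this depth the exact interval of a gene at 0 UMIs reaches 3.81 CPM in HFD and 5.95 CPM in CD members.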

Other observations

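Beyond the lists, further genes that stood far above the macrophage cells in both libraries differed by less than 1.5-fold between diets. Igfbp3, a binding protein of insulin-like growth factors, stood at 182 CPM in HFD members against 124 CPM in CD members, and in macrophage cells at 0.322 CPM against 0.184 CPM. Palmd, a membrane-associated palmdelphin, stood at 234 CPM in HFD members against 208 CPM in CD members. Esam, Ecscr and Adgrl4, which encode endothelial surface proteins, stood at 1004, 579 and 388 CPM in HFD members against 822, 469 and 322 CPM in CD members. Stmn2, a microtubule regulator known from neurons, stood at 345 CPM in HFD members against 245 CPM in CD members, and in macrophage cells at 1.13 CPM against 0.459 CPM.

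The WD library, which the comparison of diets did not use, held 1 barcode that met the rule among 4775 filtered barcodes (0.0209%), with 1537 UMIs. No level was drawn from this single cell.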
